A study of Oncorhynchus mykiss with 525 samples.

Results

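A set of 60 genes was examined in RTgill-W1, a permanent epithelial cell line from the gill of the rainbow trout (Oncorhynchus mykiss). The genes were chosen by their measured counts, as those that stood above solvent in wells of the chemical coded col at its 4 highest concentrations, and so their rise there is a description and not a finding. The choice ran over 44260 gene IDs in the deposited count tables. Wells with totals under about 10% of the median well and the 4 IDs with the most counts over all tables were left out first. The level P of a gene in a group was its summed count scaled to the total of the group as CPM, and L was the log2 ratio of P + 5 to solvent P + 5, with the solvent wells of the same batch. In solvent, 5223 IDs had a P of 20 to 1000 in both batches. Of these, 915 had an absolute L under 0.5 at the highest concentration of the chemicals coded dip and met. The 60 with the largest minimum L over col conc 1 to 4 were kept. They are ranked here by that minimum, and the other 855 eligible genes serve as the comparison.

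The cells were kept for 24 h in 96-well plates with solvent (DMSO) or with a chemical at 8 concentrations that fell 3-fold per step, apart from the chemical coded dca, which had 5 concentrations that fell 2-fold. RNA was tagged well by well, pooled into libraries and sequenced. Each chemical but dca, which was on all 6 plates, was run in 3 passages of the cell line, which the design text calls biological replicates, with 1 plate per passage. All the wells are of 1 cell line, with no genotype or strain differing between groups. Tables for 19 chemicals were analysed, in 2 batches of 3 plates each, with 24 solvent wells in batch 1 and 15 in batch 2.

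The col wells belonged to batch 1. Their labelled concentrations, with no unit given, were 3.99, 1.33, 0.44 and 0.15 for conc 1 to 4, and 0.05, 0.02, 0.01 and 0.00 after rounding for conc 5 to 8. The labels do not say which chemicals were dissolved in DMSO and which in water, so the DMSO wells may not match the vehicle of every chemical. Chemicals are named by their codes, since no source used here pairs the codes with names.

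RTgill-W1 is used in place of whole fish to measure how toxic a chemical is to the gill, the tissue through which a fish breathes, balances salts and first meets dissolved substances. When cells are lost or make less RNA, a well yields fewer tagged reads, and the genes that remain are read as shares of a smaller total. A gene that holds its transcript number while others fall then rises in CPM. The salmonid lineage went through a whole-genome duplication, and many trout genes have near-identical copies between which reads can be split. None of the gene IDs could be paired with a name, so the functions of the members, the gene lists for stress pathways and the markers of epithelial and other cell types could not be examined, and no sequence is shown. Fewer cells and less RNA per cell cannot be told apart in such wells.

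The name "raised by col only" did not hold over the other chemicals. The rule compared col with 2 chemicals at 1 concentration each. At dic conc 4 the median L of the 60 members was 1.36, above that of every col group, and 52 of 60 were above 0. The set is therefore called by its rule below, as the col-chosen members.

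Of the 501 wells with a column, 487 were used, with totals of 24620 to 786151 counts. The 4 IDs with the most counts took 46.3% of all counts. In the used col wells they took 60.7% to 72.5% of passage 1 and 55.2% to 60.2% of passage 3 at conc 1 to 4. At conc 1 to 4 all 4 col wells of passage 2 fell under the depth limit, with totals of 5764, 7940, 7529 and 15710 counts, and the choice of members therefore rested on 2 wells per concentration. The replicates are passages. The p-values measure the spread between wells of a group, and each solvent well counts singly although several share a plate and passage. In fits with the plate as a block, they measure the spread left after plate differences were removed.

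The members were of low to moderate level in solvent wells. Their median solvent P was 46.9 CPM in batch 1 and 38.4 CPM in batch 2, close to the 56.0 and 53.7 CPM of the other eligible genes. In batch 1, 31 members were under 50 CPM and 8 were over 200 CPM, from 20.7 CPM for the member of rank 23 to 698.7 CPM for the member of rank 3. The 5 highest members held 38.1% of the summed solvent P of 6111 CPM. A higher solvent P in batch 1 than in batch 2 was seen in 52 of 60 members, against 57.1% of the other eligible genes. These levels are counts per ID and not per transcript length, so they do not order the genes by transcript number.

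At these levels single wells held few reads of a member. Over the used col wells of conc 1 to 4 together, a member had 12 to 611 counts, with a median of 35, and 40 of 60 members had under 50. Values of a single member in a single well are therefore coarse, and the summed level of the 60 members is given beside them.

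At col conc 1, 2, 3 and 4 the members had a median L of 1.15, 1.06, 1.25 and 1.00. The other eligible genes had medians of -0.71, -0.88, -0.71 and -0.56 there. Since the rule used these wells, no test is given. Against the pooled solvent wells of the 3 plates, the median at conc 4 was 0.18 in passage 1 alone, without passage 3. An L of at least 1 at each of the 4 concentrations was reached by 13 members, and an L of at least 0.5 by 36. The largest L was at conc 1 for 12 members, at conc 2 for 20, at conc 3 for 17 and at conc 4 for 11, and 28 members were lower at conc 1 than at conc 4. The rule ranked genes by their minimum over these 4 groups, which favours even levels. Nothing is therefore read from these counts about a trend with concentration.

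**Figure D1:**
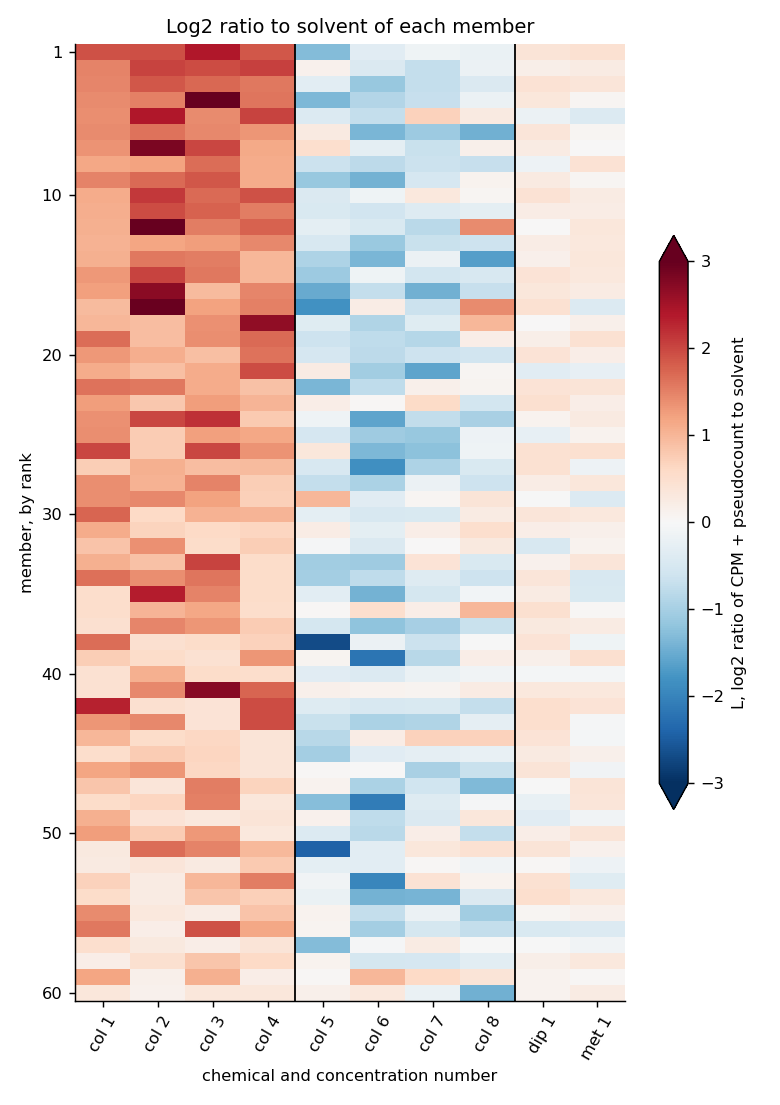
Log2 ratio to solvent (L, colour, clipped at -3 and 3) of each of the 60 members, in rows by rank, at col conc 1 to 8 and at dip conc 1 and met conc 1. Red cells fill col 1 to 4, where the members were chosen, and most members turn pale or blue from col 5 on, where the median L was -0.38.

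The rule did not use the 4 lower concentrations. At conc 5, 6, 7 and 8 the median L of the members was -0.38, -0.74, -0.45 and -0.16, with 19, 7, 17 and 22 of 60 members above 0. The other eligible genes had medians of -0.05, -0.03, -0.03 and -0.04. Without passage 1 the medians at conc 5 and conc 8 were 0.07 and 0.15, of opposite sign. In 58 of 60 members L at conc 5 was below L at each of conc 1 to 4, from which nothing is read, since the members were chosen for their minimum over those 4 groups.

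Member extremes give the spread within this pattern. At conc 1 L ran from 0.20 (rank 58) to 2.30 (rank 42), at conc 2 from 0.14 (rank 60) to 3.00 (rank 12), at conc 3 from 0.20 (rank 57) to 4.04 (rank 4) and at conc 4 from 0.20 (rank 59) to 2.67 (rank 18). At conc 5 it ran from -2.69 (rank 38) to 1.00 (rank 29), and at conc 6 from -2.20 (rank 39) to 0.99 (rank 59). At conc 7 the range was -1.58 (rank 21) to 0.69 (rank 44), and at conc 8 it was -1.66 (rank 14) to 1.41 (rank 17). The threshold of the set fell in a continuous series, with a minimum L of 0.16 and 0.14 for ranks 59 and 60 just inside and 0.13 and 0.09 for ranks 61 and 62 just outside.

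Summed over the 60 members, the level of each well is given by passage, again as a description at conc 1 to 4 of passages 1 and 3. In passage 1 the sums at conc 1 to 8 were 9763, 10661, 11386, 8456, 2001, 2405, 2889 and 3607 CPM. In passage 3 they were 19743, 21874, 21030, 19770, 6784, 4521, 5637 and 6579 CPM. In both passages every well of conc 1 to 4 stood above every well of conc 5 to 8 and above the solvent wells of its own plate. Those ran from 3313 to 7743 CPM with a median of 4086 on plate 1, and from 4798 to 16061 CPM with a median of 7863 on plate 3. Plate 3 thus had the higher levels in col wells and the higher median in solvent wells.

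The passage 2 wells of conc 1 to 4, which the rule left out, were not above the lower concentrations as a group. Their sums were 5292, 8214, 4938 and 5290 CPM, against 8700, 5509, 6956 and 6661 CPM at conc 5 to 8 of the same passage and 5401 to 12048 CPM in the 8 solvent wells of plate 2. Pooled, the 4 wells held 125 member counts, or 5814 CPM (exact Poisson 95% interval 4839 to 6927), and the ratio to the solvent wells of the plate was 0.778. The same pooled ratio was 2.50 in passage 1, from 1329 counts and 10006 CPM (9475 to 10559), and 2.71 in passage 3, from 2964 counts and 20444 CPM (19715 to 21194). Against the wells of conc 6 to 8 of their own passage, the ratios were 3.35, 0.915 and 3.59 in passages 1, 2 and 3. The intervals cover counting error only.

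The upper bound of 6927 CPM for the left-out wells is below the pooled solvent level of their plate, 7468 CPM. The ratios of passages 1 and 3 come from the wells that chose the members, and the difference between the passages was not tested. Single members could not be resolved there: 18 of 60 had a count of 0 over the 4 wells. The median L of the members in these wells was -0.71, with 24 of 60 above 0. That of the other eligible genes was -1.06, with 33.9% above 0. Of those 855 genes 376 had a count of 0 there, so both medians rest on few counts. At conc 1 to 4 the summed ratio to the solvent wells of the plate was 0.709, 1.1, 0.661 and 0.708 for the members. For the other eligible genes it was 0.893, 0.797, 0.77 and 0.865. The 4 most counted IDs took 37.7% to 44.8% of these wells and 30.5% to 35.8% of the passage 2 wells at conc 5 to 8. At conc 5 to 8 they took 47.7% to 51.2% in passage 1 and 40.1% to 46.1% in passage 3. Of the 60 members, 55 were above 0 in both passages 1 and 3, 29 were above 1 in both, and 21 were above 0 in all 3 passages. The wells of passages 1 and 3 chose the members, and the same counts were not made for the other genes. Nothing is therefore read from these counts.

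**Figure D2:**
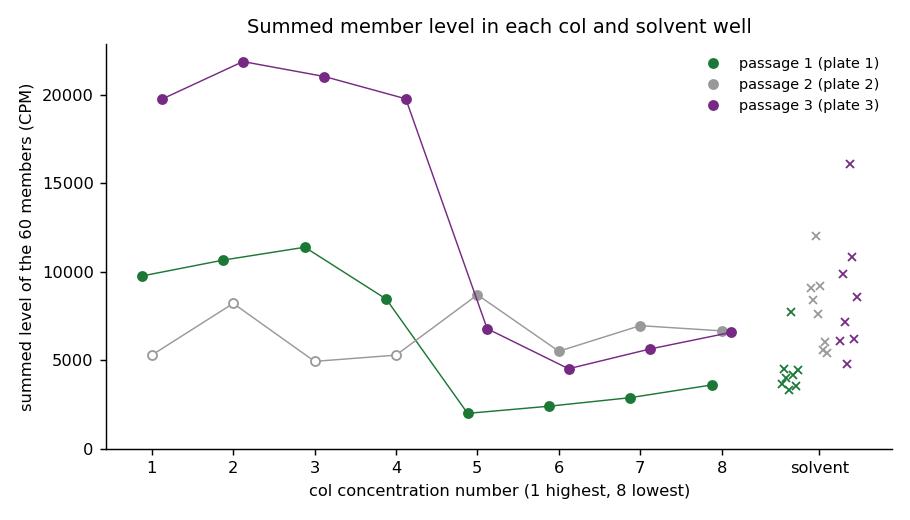
Summed level of the 60 members (CPM) in each col well by concentration number and in each solvent well of the same plate (crosses), coloured by passage. Open circles are the passage 2 wells left out for their depth. Passages 1 and 3 drop between conc 4 and conc 5, and passage 2 stays between 4938 and 8700 CPM throughout.

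Wells of col share their library with wells of the chemicals coded thx and cat, and their levels inside a library are given here as a description, since the col wells of passages 1 and 3 chose the members. In passage 1 the 16 used wells of thx and cat ran from 1617 to 7909 CPM, below the lowest col well of conc 1 to 4 at 8456 CPM. In passage 3 the 16 used wells ran from 3199 to 12519 CPM, again below the lowest such col well at 19743 CPM. In passage 2 the 15 used wells ran from 5263 to 12032 CPM, which covers the left-out col wells apart from 1 at 4938 CPM.

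Values of single members show the counts behind the sums. The member of rank 1, ENSOMYG00000011448, had a solvent P of 22.4 CPM in batch 1 and L values of 1.91, 1.94, 2.41 and 1.85 at conc 1 to 4. In passage 1 it measured 25.0, 77.0, 121.8 and 0 CPM there, from 1, 2, 4 and 0 counts, and in passage 3 it measured 189.8, 125.5, 156.6 and 156.4 CPM, from 6, 3, 6 and 8 counts. At conc 5 to 8 it lay between 0 and 40.3 CPM over the 3 passages. Its batch 1 solvent wells ran from 0 to 70.7 CPM with a median of 19.1, so all 4 wells of passage 3 but only 2 of passage 1 stood above every solvent well.

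The member of rank 2, ENSOMYG00000006483, was better covered. Its passage 1 wells at conc 1 to 4 measured 349.6, 500.3, 274.0 and 353.6 CPM, and those at conc 5 to 8 measured 12.0, 76.4, 40.1 and 74.7 CPM. Its passage 3 wells measured 791.0, 1087.4, 1148.0 and 1095.1 CPM at conc 1 to 4, and 521.9, 194.7, 212.4 and 282.2 CPM at conc 5 to 8. In both passages the 4 higher concentrations stood clear of the 4 lower ones. In passage 2 it had 1 count at conc 1 and none at conc 2 to 4, while its wells at conc 5 to 8 measured 239.2, 215.0, 77.4 and 148.0 CPM. The highest solvent well was at 340.3 CPM on plate 1 and at 826.0 CPM on plate 3, so 3 of the 4 wells stood above it in each of these passages.

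The highest level of the set was that of rank 3. Its passage 1 wells measured 998.8, 1270.1, 1248.2 and 795.5 CPM at conc 1 to 4, above the highest plate 1 solvent well at 723.2 CPM. Its passage 3 wells measured 3132.3, 3931.4, 3235.4 and 2991.9 CPM, of which only that at conc 2 exceeded the highest plate 3 solvent well at 3304.0 CPM. The left-out passage 2 wells measured 835.7, 1140.8, 673.4 and 330.7 CPM from 3, 5, 3 and 3 counts, within the plate 2 solvent range of 316.5 to 1147.8 CPM.

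Levels also differed between plates. In the case of rank 50, the member had a solvent median of 1368 CPM on plate 2 against 138.8 CPM on plate 1 and 89.6 CPM on plate 3. Its col wells of conc 1 to 4 measured 1248.5, 1000.7, 1522.2 and 1031.2 CPM in passage 1, where the highest solvent well was 164.5 CPM. They measured 885.9, 543.7, 808.8 and 254.2 CPM in passage 3, where the highest solvent well was 190.0 CPM. Because the solvent P pools the 3 plates, its L of the rule understates the distance from the solvent wells of its own plates.

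**Figure D3:**
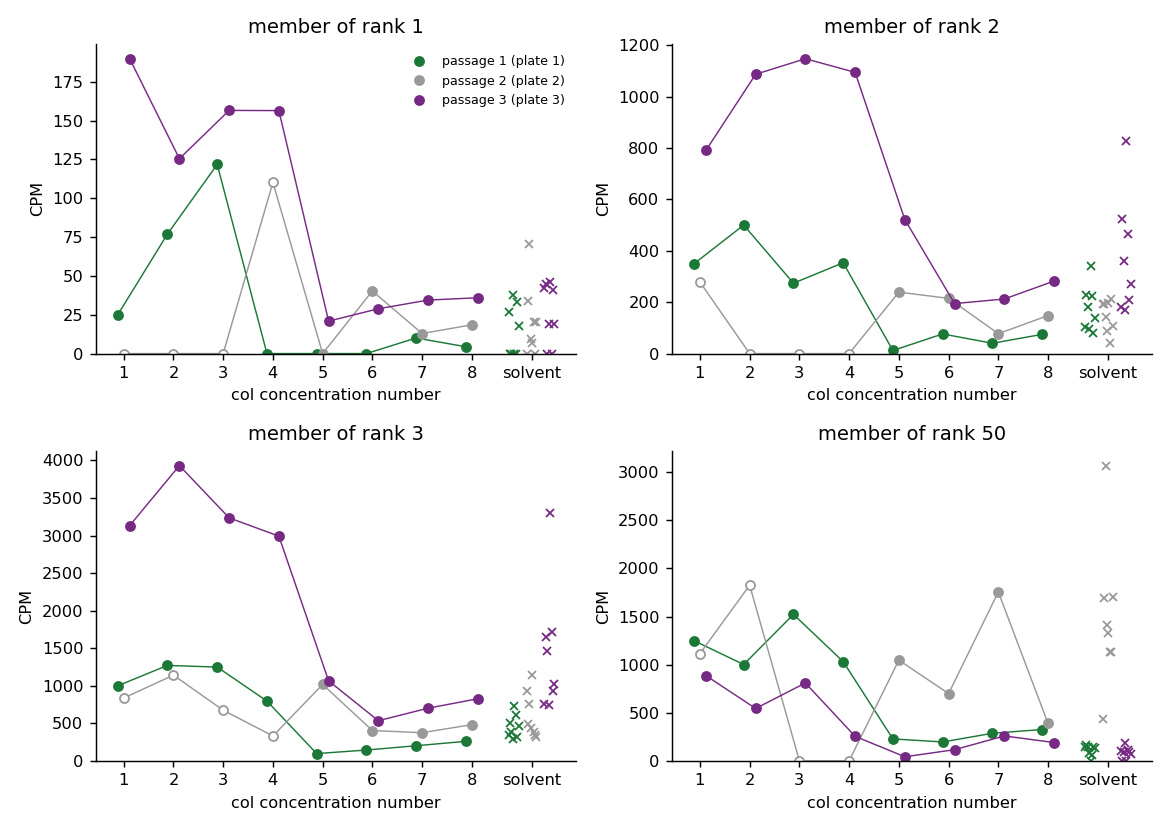
CPM of the members of rank 1, 2, 3 and 50 in each col well by concentration number and in each batch 1 solvent well (crosses), coloured by passage as in the plot of summed levels, with open circles for left-out wells. Ranks 1, 2 and 3 are highest in passage 3, and rank 50 has solvent wells on plate 2 of up to 3065 CPM.

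Whether the members moved at the lower col concentrations was tested in col wells that the rule did not use. The solvent wells they were compared with also served the choice of members, so this test is not independent of it. In edgeR's quasi-likelihood test of each group against the batch 1 solvent wells, 50 of the 60 members passed the filter on low counts. The filter and the model also took in the used wells of conc 1 to 4, where the members were chosen to be high. A member could therefore pass the filter through those wells. At conc 5, 0 of these 50 were called higher and 0 lower at a Benjamini-Hochberg FDR of 0.05, where 0.0666% of all 3001 genes tested were called higher and 0% lower. At conc 6, 7 and 8 again 0 members were called, with 0% of all genes called. At an unadjusted p under 0.05, 0 members were higher and 2 lower at conc 5, 1 and 13 at conc 6, 0 and 6 at conc 7, and 4 and 3 at conc 8. No share of all genes at this unadjusted limit stands beside these counts, so nothing is read from them. DESeq2 called 0 members at conc 5. A fit blocked by plate called 1 member lower at conc 6 (rank 27), where 0.1% of all genes were, and 1 higher at conc 8 (rank 18), where 0.133% were. At conc 5 it called 0 members, where 0.133% of all genes were higher and 0% lower.

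A second test used no solvent well and so shares none with the choice of members. Conc 5 was compared with the mean of conc 6 to 8 in the col wells alone, and 26 members passed the filter. Of these 0 were called higher, where 0.13% of all 2300 genes were, and 0 lower, where 0.087% were. DESeq2 also called 0 members. The blocked fit called 0 as well, where 0.348% of all genes were higher and 0.478% lower, and at an unadjusted p under 0.05 0 members were higher and 1 was lower. The unadjusted counts again stand without the share of all genes, and nothing is read from them. The member of rank 2 had a log2 fold change of 0.14 (SE 0.60) at conc 5 against solvent, with an edgeR adjusted p of 1, and of 0.70 (SE 0.63) at conc 5 against conc 6 to 8, with an edgeR adjusted p of 0.953.

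At the 2 concentrations used to set the members apart from other chemicals, small rises were common within the limit of 0.5. The median L was 0.24 at dip conc 1, with 48 of 60 members above 0, and 0.18 at met conc 1, with 43 above 0. The other eligible genes had medians of 0.09 and -0.04. The summed levels at dip conc 1 were 6521, 4694 and 4958 CPM, of which those of passages 2 and 3 were above all solvent wells of their plates. At met conc 1 they were 6433, 5375 and 9891 CPM, within or below the solvent ranges of their plates.

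The remaining 16 chemicals were tested at the highest concentration that kept at least 2 wells. For clp and smet this was conc 2, since all their wells of conc 1 were under the depth limit. The solvent wells of both batches also served the choice of members. Neither these tests nor those at lower concentrations, given below, are therefore independent of that choice. In all of them the filter on low counts also took in the tested wells, so a member could pass it through a high level there. The shares of members called are therefore given as a description. Over the 16 contrasts 2 of 798 member tests were called higher, or 0.251%, where 0.184% of all tests over all genes were, and 0 were called lower, where 0.0885% were. A share so near the background is not a result about the members. Blocked by plate, the pairing that the passages give, 32 of 798 were called higher against a background of 0.453%, and 3 lower against 0.27%.

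The 2 calls without the block fell in different chemicals. At thx conc 1, where 0.0644% of all genes were called higher, the member of rank 10 rose, to 546.1 and 746.6 CPM in the 2 used wells against solvent wells of 18.1 to 340.3 CPM with a median of 71.4. Its log2 fold change was 2.67 (SE 0.49, edgeR adjusted p = 0.00206). At mbz conc 1, where 0.213% were, the member of rank 27 rose, with 401.6, 67.1 and 337.9 CPM in passages 1, 2 and 3 against 34.2 to 184.7 CPM in solvent. Its log2 fold change was 1.47 (SE 0.38, edgeR adjusted p = 0.0434), and its passage 2 well lay inside the solvent range.

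At the 121 lower concentrations of 18 other chemicals, 11 of 5981 member tests were called higher against a background of 0.0875%, and 2 lower against 0.104%. In the blocked fit the counts were 96 against a background of 0.249% and 15 against 0.202%. The calls without the block fell in few groups: members were called higher in 4 of the 121 groups and lower in 2.

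The group with the most calls was dic conc 4, at a labelled concentration of 1.55. Here 7 of 55 members tested were called higher, or 12.7%, where 1.56% of all 5777 genes were. With the block 16 members were called against a background of 2.25%, and DESeq2 called 18 against 5.23%. The summed levels were 16418, 11011 and 6786 CPM in the 3 passages, each above every solvent well of its plate, of which the highest were at 7638, 3895 and 4059 CPM. These wells had low totals of 50205, 45663 and 41711 counts, or 16.4%, 11.1% and 14.6% of the median of their libraries. The part of low totals in the result was not tested. With all wells thinned to the lowest of these totals, 10 members could still be tested and 4 of them were called, against a background of 2.44%. With and without thinning, the filter on low counts also took in the dic conc 4 wells. A member could therefore pass it through a high level there, and nothing is read from the shares of members called in this group. The count rested on the passages unequally, with 1 of 57 members called without passage 1 (0.498% of all genes), 2 of 55 without passage 2 (0.788%) and 9 of 58 without passage 3 (1.15%).

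Among the members called at dic conc 4, the member of rank 20 measured 2148.2, 1283.9 and 980.1 CPM, against 92.7 to 738.7 CPM in the 15 batch 2 solvent wells with a median of 293.1. All 3 wells stood above the solvent range, with a log2 fold change of 1.52 (SE 0.39, edgeR adjusted p = 0.00973). That of rank 58 measured 276.2, 233.4 and 226.2 CPM against 13.9 to 153.3 CPM, again with no overlap (log2 fold change 1.89, SE 0.49, edgeR adjusted p = 0.00989). That of rank 43 measured 153.4, 233.4 and 113.1 CPM against 0 to 66.7 CPM, from 5, 6 and 3 counts (log2 fold change 2.33, SE 0.66, edgeR adjusted p = 0.0187). The members of rank 33 and 42 were called with a count of 0 in passage 3, so those calls rest on passages 1 and 2.

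Next in the number of blocked calls were per conc 8 and dip conc 8, both at the lowest concentration of their chemical, labelled 0.03. At per conc 8, 12 of 50 members were called with the block against 1.17% of all genes, and 0 of 50 without it, where 0.127% were. At dip conc 8, 11 of 48 were called with the block against 1.51%, and 1 of 48 without it, where 0.135% were. Summed levels at per conc 8 were 13166, 4329 and 7797 CPM, and at dip conc 8 they were 11499, 5591 and 6763 CPM. All 6 wells stood above every solvent well of their plate. The totals at per conc 8 were 60.1% to 67.5% of the library median and those at dip conc 8 were 30.8% to 36.5%. Leaving out passage 3 reduced the blocked count to 2 of 53 at per conc 8, against 0.297% of all genes, and to 3 of 52 at dip conc 8, against 0.277%.

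At clp conc 2 and diz conc 2 the block gave 8 of 54 members called against 0.834% of all genes, and 8 of 50 against 1.93%. Here too a member could pass the filter on low counts through the tested wells. The median L of the members at dip conc 8 was 0.88. That at dip conc 1, 0.24, was bounded by the rule, which kept only genes with an absolute L under 0.5 there. Nothing is therefore read from the difference between these concentrations of dip. Batch 2 chemicals share their 15 solvent wells, so the values of dic, dip, per, clp and diz are not independent of each other. These solvent wells also served the choice of members, so the values are not independent of that choice either.

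Among the calls without the block and with the filter on low counts, that with the largest log2 fold change was of rank 12 at diq conc 4. It measured 617.8, 418.2 and 302.8 CPM against 0 to 87.2 CPM in solvent, with a median of 24.4 and no overlap. Its log2 fold change was 3.80 (SE 0.49, edgeR adjusted p = 7.42e-07). In this group 2 of 48 members were called, those of rank 12 and 54, where 0.396% of all genes were. At col the same member measured 0, 192.4, 60.9 and 29.5 CPM at conc 1 to 4 in passage 1 and 158.2, 376.4, 130.5 and 176.0 CPM in passage 3.

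Both member tests called lower without the block were of the member of rank 50. It fell at mbz conc 6, where 0.724% of all genes were called lower, with 0, 0 and 92.9 CPM against 96.5 to 454.2 CPM in solvent and a log2 fold change of -3.39 (SE 0.61, edgeR adjusted p = 0.000626). It also fell at clp conc 5, where 0.0491% were, with 0, 86.4 and 90.0 CPM and a log2 fold change of -2.14 (SE 0.45, edgeR adjusted p = 0.0154). All 6 wells lay below the solvent range.

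Over all other chemicals, 13 members were called higher in at least 1 group and 1 lower without the block. With the block 32 members were called higher in at least 1 group, 21 of them in at least 2 chemicals, and 7 were called lower in at least 1 group. The same counts were not made for the other genes, so these numbers are not a result about the members. Within the set, the members of rank 3, 50 and 20 had the most calls higher with the block. Rank 3 was called higher in 16 groups of 7 chemicals and lower in 1 group, rank 50 higher in 15 groups of 5 chemicals and lower in 7 groups, and rank 20 higher in 13 groups of 6 chemicals and lower in 2 groups. The counts behind a test differ between members, so these numbers do not rank the members by the size of their response. For ranks 3 and 20, all calls higher were in batch 2 chemicals and all calls lower in batch 1 chemicals. Chemicals of a batch share their solvent wells, so these calls are not independent of each other. For rank 50 the split was the reverse, with all calls higher in batch 1 chemicals and all calls lower in batch 2 chemicals. Its solvent median was 1368 CPM on plate 2, against 138.8 CPM on plate 1 and 89.6 CPM on plate 3. The part of the batch in the direction of these calls was not tested.

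**Figure D4:**
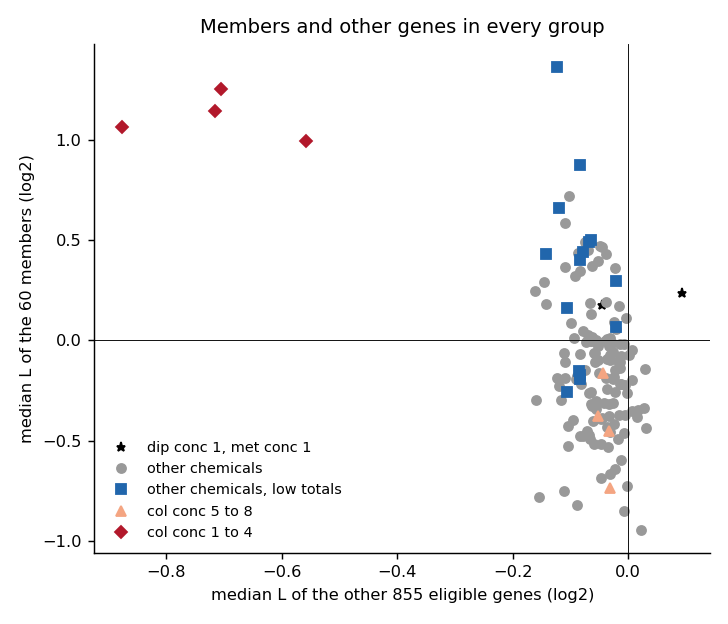
Median L of the 60 members against median L of the other 855 eligible genes (both log2) in every group that kept a used well. All wells of clp conc 1 and smet conc 1 were left out for their depth. Col conc 1 to 4 (diamonds) lie apart on the left, with the members near 1 and the other genes between -0.88 and -0.56. The highest plotted group of another chemical, dic conc 4 at 1.36, has the other genes near 0.

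The col groups differed from the other groups in the genes around the members. At col conc 1 to 4 the median L of the other eligible genes was -0.56 or lower, while at dic conc 4 it was -0.12. All wells of clp conc 1 and smet conc 1 were under the depth limit, so these groups are not counted here. Left out too are dip conc 1 and met conc 1, which the rule used. Over the 142 remaining groups of other chemicals, the median L of the other eligible genes ran from -0.16 (per conc 1) to 0.03 (cat conc 3). The difference between col and the other chemicals in this median was not tested.

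Low totals went with higher member levels in other chemicals as well. Of the same 142 groups of other chemicals, again without dip conc 1 and met conc 1, 15 had a median total under 50% of their library's median well. In these the median L of the members was above 0 in 11, with a median of 0.40 and a range of -0.26 to 1.36. In the remaining 127 groups it was above 0 in 32, with a median of -0.18 and a range of -0.94 to 0.72. A median L of the members above 0.5 was found in 6 of the 142 groups. For the other eligible genes, the median L had a median of -0.08 over the low-total groups and of -0.05 over the remaining groups. Across the 8 solvent wells of each batch 1 plate, the correlation of log total with log summed member CPM was -0.77, -0.45 and -0.75 on plates 1, 2 and 3, and across the wells of other chemicals on these plates it was -0.52, -0.23 and -0.49. These are descriptions over wells that share libraries and depth, and the CPM contains the total.

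Levels in other wells of like total are set beside those of col as a description, since these col wells chose the members. On plate 1, 2 solvent wells and 7 wells of other chemicals had totals within 1.5-fold of the range of the col wells, with summed levels of 4185 to 4482 and 2769 to 7909 CPM. On plate 3, 2 solvent wells and 21 wells of other chemicals did, with 9848 to 10822 and 4069 to 12792 CPM. Of these, 0 reached the lowest col well of the plate, at 8456 CPM on plate 1 and 19743 CPM on plate 3.

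**Figure D5:**
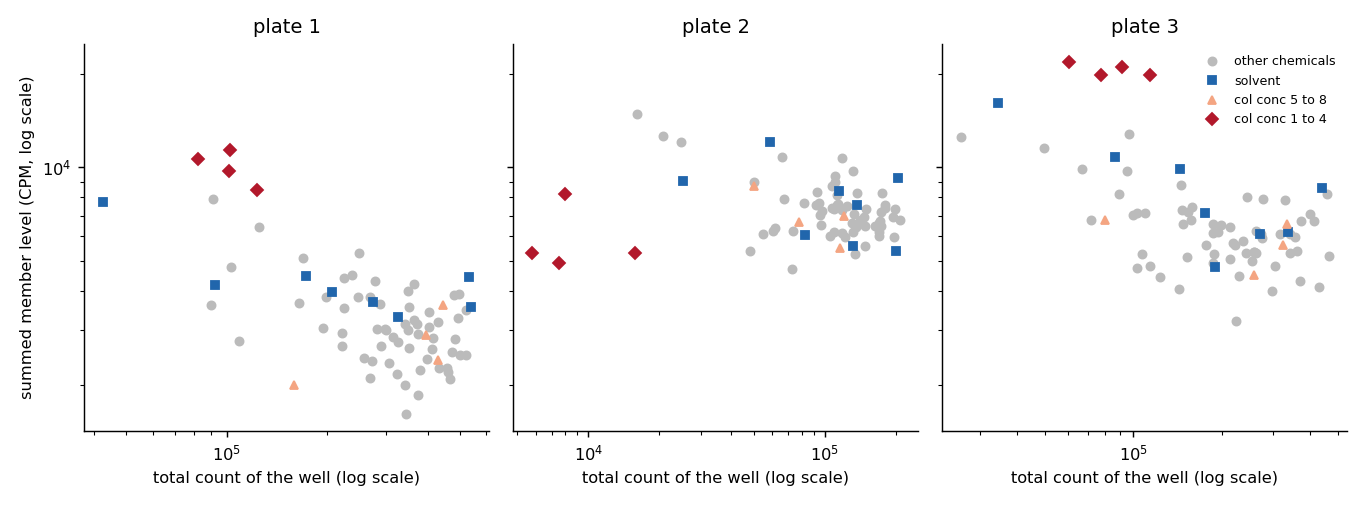
Summed level of the 60 members (CPM, log scale) against the total count of the well (log scale) for plates 1, 2 and 3, with left-out wells included. On plates 1 and 3 the col wells of conc 1 to 4 (diamonds) lie above the other wells of like total, and on plate 2 they lie at the lowest totals with 4938 to 8214 CPM.

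Outside col the members were loosely tied to each other, but more so than the other eligible genes in wells of other chemicals. Over the 428 used wells of the other chemicals, with plate means removed, the median correlation between pairs of members was 0.119 and 83.9% of pairs were positive, against 0.030 and 67.1% for pairs of the other eligible genes. Over the 39 solvent wells the medians were 0.058 and 0.067. Of 1770 pairs, 24 had a correlation above 0.5, and these joined 13 members, of which 12 were among the 20 highest solvent levels. The highest was 0.707, between ranks 2 and 3, a pair chosen after its values were seen. Among the other 47 members the median was 0.084. Pairs of the other eligible genes reached at most 0.494 over the wells of other chemicals. Over the solvent wells the highest pairs were at 0.771 for members and 0.925 for the other eligible genes. The difference between members and other genes was not tested. Wells of 1 library share their preparation and depth, counts of low members are sparse, and a weak correlation is no finding.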

How the data were processed

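The deposited values are whole-number counts for each well and Ensembl gene ID, with no sign of normalization by the authors. Libraries were made with a QIAseq UPXome kit and demultiplexed by well codes, per the labels' protocols and the design text; the sources used here name no aligner, counter, genome build or annotation. The 21 tables held 381 repeated columns, of which 0 differed. Of 44260 IDs, 0 matched the RefSeq gene table (USDA_OmykA_1.1). The 24 wells of 1 chemical without a column were not analysed here, and unexposed wells were not used here. Columns were matched to samples by library and well.

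The members and lists were chosen with earlier results of these data known. Members were ranked by minimum L, and ranks were named for extremes, calls and the threshold; others are said to be chosen later. CPM left out the 4 IDs with the most counts. Intervals are exact Poisson, at 95%. Tests used edgeR 4.0.16 (quasi-likelihood, TMM, filterByExpr) in R 4.3.3, two-sided, with Benjamini-Hochberg adjustment over all genes of a contrast at 0.05, each chemical with the solvent wells of its batch, with DESeq2 1.42.0 as an alternative. The steps were tested on simulated data. Plots used matplotlib 3.10.9.

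The design text gives 1 plate per passage, and plates follow from the libraries in the labels (replicate numbers 1 and 2 of ata, cln and gly lie on plates 2 and 1), so the plate was used as a block in an alternative fit. Deviations of wells of different groups correlated with a median of 0.048 on the same plate (222 pairs) and -0.029 on different plates (432 pairs). Alternatives were the pseudocount, the scaling, the 4 IDs, the depth limit, the filter, the control and each replicate left out. Totals of used wells were 24620 to 786151 counts.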

Additional observations from a re-analysis of the deposited data

Results flagged for a closer look

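Some wells under the depth limit, which enter no comparison above, held a summed member level above every solvent well of their plate, with the lower bound of the exact Poisson interval above it too. This was so in 7 of the 14 left-out wells. The well of clp conc 1 in passage 1 reached 36792 CPM (33622 to 40181, 495 member counts in a total of 22101), against 7638 CPM in the highest solvent well of the plate. In that well 53 of 60 members had a count and 50 had an L above 1, against 11.6% of the other eligible genes. The clp conc 1 wells of passages 2 and 3 stood at 12733 CPM (9054 to 17406) and 12533 CPM (7546 to 19572), against highest solvent wells of 3895 and 4059 CPM. The smet conc 1 wells of passages 2 and 3 stood at 12847 CPM (8314 to 18965) and 15437 CPM (9149 to 24398), against the same solvent wells. The smet conc 3 well of passage 1 stood at 10042 CPM (8474 to 11816), against 7638 CPM. The thx conc 1 well of passage 2 stood at 14870 CPM (12783 to 17201), against 12048 CPM. The low-total wells of clp and smet thus held higher member levels than the left-out col wells, whose sums were 4938 to 8214 CPM.

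Among the 8 solvent wells of plate 1, 1 well stood apart with a summed member level of 7743 CPM against a plate median of 4086 CPM. It had the lowest total of that plate's solvent wells, 42451 counts. In all, 18 groups were examined for such a well, and chance alone sets about 1 in 20 groups apart.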

How the results depend on the processing

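Of 184 recomputed values, 148 were counted as unchanged. For a median L this meant the same sign and a value within the spread between replicates, and for a count a value within 1.5-fold. At col conc 1 that spread was 0.67, so a fall from 1.15 to 0.58 with all IDs kept was counted as unchanged. Counts of 0 that stayed 0 were also counted as unchanged, so the tally is no measure of stability. The log2 fold changes of the member of rank 2 had only to keep their sign and their side of the FDR limit, whatever their size. With all IDs kept in the totals, the median L of the members was 0.32 at col conc 2 and 0.57 at conc 3, and 17 of the 60 members were chosen again. The rule chose again 22 members with an absolute L under 1, 9 with one under 0.25, and 26 to 46 when 1 passage of col was left out. Leaving out passages gave a median L of 0.18 to 1.30 at conc 4, -0.71 to 0.074 at conc 5 and -0.45 to 0.15 at conc 8, with reversed signs at conc 5 and 8 without passage 1. Scaling moved the median of all genes in range at conc 1 from -0.80 to -0.45 by TMM, -0.20 by size factors and -1.15 with all IDs kept, and the members' median from 1.15 to 1.41, 1.69 and 0.58.

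With the plate as replicate block, members called higher at the highest tested concentration of other chemicals went from 2 to 32 and those called lower from 0 to 3. The shares over all genes went from 0.184% to 0.453% and from 0.0885% to 0.27%. Without a filter on low counts they were 6 and 2 of 960, where 0.0354% of all tests were higher and 0.0258% lower. With replicate 1, 2 or 3 left out, 0, 2 and 0 members were higher. Over all genes 71 of 74590, 123 of 74552 and 69 of 80009 tests were. The block left col conc 5 at 0 calls in both comparisons. The log2 fold change of the member of rank 2 at col conc 5 was -0.07 without the filter and -1.26 to 0.83 without 1 passage, negative without passage 3. Alternatives added after seeing the data gave, at dic conc 4, 16 calls with the block (2.25% of all genes), 18 with DESeq2 (5.23%) and 4 after thinning (2.44%). Without passage 1, 2 or 3 they gave 1, 2 and 9 unblocked (0.498%, 0.788% and 1.15%). With the block these were 6, 6 and 10 (1.01%, 0.986% and 1.13%). At dip conc 8 they gave 11 with the block (1.51%), 10 with block and thinning (2.39%), 1 with thinning alone (0.691%) and 3 with DESeq2 (1.01%). Without passage 1, 2 or 3 they gave 0, 1 and 2 unblocked (0.0212%, 0.289% and 0.0793%). With the block these were 3, 5 and 3 (0.382%, 0.598% and 0.277%). At per conc 8 they gave 12 with the block (1.17%), 10 with block and thinning (1.61%), 0 with thinning alone (0.173%) and 0 with DESeq2 (0.127%). Without passage 1, 2 or 3 they gave 0, 1 and 0 unblocked (0.0461%, 0.115% and 0.0228%). With the block these were 7, 11 and 2 (0.438%, 0.874% and 0.297%). In all these fits at dic conc 4, dip conc 8 and per conc 8, a member could pass the filter on low counts through the tested wells. The comparison of col conc 5 with conc 6 to 8 had no well under the depth limit, so keeping all wells was not run for it. The cause of these differences was not tested. Depth limits single members: 40 of 60 had under 50 counts over the used wells of col conc 1 to 4.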

Other observations

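The wells of plate 2 that the depth limit left out hold values of both kinds. The dca conc 1 well of passage 2 stood at 12620 CPM, the thx conc 1 well at 14870 CPM and the 4 col wells at 4938 to 8214 CPM. The dic conc 3 well of passage 2, on plate 5, stood at 1957 CPM from 13 member counts. In the smet conc 1 well of passage 1 the level was 8228 CPM from 28 member counts.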
